A study of Mus musculus with 91 samples.

Results

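Mitochondrial respiratory chain genes encode the nuclear subunits of the 5 enzyme complexes in the inner mitochondrial membrane that carry electrons from NADH and succinate to oxygen and use the resulting proton gradient to make ATP. Complex I (genes named *Nduf*) takes electrons from NADH, complex II (*Sdh*) takes them from succinate, complex III (*Uqcr* and *Cyc1*) passes them to cytochrome c, complex IV (*Cox*) hands them to oxygen, and complex V (*Atp5*) is the ATP synthase. Several subunits of complexes IV and V exist as alternative isoforms from separate genes, some of them known for heart and skeletal muscle or for the testis. Fetal gonads hold primordial germ cells beside supporting, interstitial and endothelial cells, and after sex determination XX germ cells enter meiosis while XY germ cells arrest in the cell cycle, so the chain can be read in germ and somatic cells of both sexes side by side.

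Genes were chosen by symbol alone, among the transcript clusters of the array that name a single gene, and the cluster with the highest mean over the sorted-cell arrays stood for a gene with several. The choice gave 78 genes of the 15324 genes tested. By the prefix of the symbol alone, 34 fell in complex I, 4 in II, 9 in III, 14 in IV and 17 in V. *Ndufa4* is counted in complex I by this rule, although its protein is a subunit of complex IV. All 78 passed the filter on low values, which asked for a log2 value over 6 in at least 2 of 3 arrays of some group. *Ndufa1*, *Ndufb11* and *Cox7b* are X-linked. Clusters that name several genes were left out, which removed *Cox7c*, *Ndufb4* and one cluster of *Ndufs5* shared with a pseudogene. For 15 genes there were 23 further clusters, and each of these followed the one used with a correlation of 0.81 to 0.9975 over 24 group means, a description over groups that share arrays.

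Cells were sorted by fluorescence from pooled XX and XY mouse gonads on days 11.5, 12.5 and 13.5 of development (E11.5 to E13.5), and each of the 3 replicates of a group was a pool of at least 1 litter. Germ cells carried *Oct4-EGFP*. Supporting cells carried *Sry-EGFP* in XX gonads at all stages and in XY gonads at E11.5, and *Sox9-ECFP* in XY gonads at E12.5 and E13.5, so XY supporting cells change reporter between E11.5 and E12.5 and XX and XY supporting cells differ in reporter at the later stages. Interstitial (XY) or stromal (XX) cells were sorted by a reporter of their own and are called interstitial in both sexes. Endothelial cells carried *Flk1-mCherry*, and the study states that this sort also took in Leydig cells of XY gonads and that an XY endothelial array of the earliest stage had a low amplification yield and stood apart. A further sort, *αSma-EYFP*, held a mixed population and was fitted separately. Germ and supporting cells came from CD-1 crossed to C57BL/6J, interstitial cells from CD-1 crossed to a mixed background, *Flk1-mCherry* cells from CD-1 and *αSma-EYFP* cells from FVB per the labels. Cell type, reporter and strain therefore cannot be told apart. Germ and supporting cells share the cross, but between them cell type and reporter still cannot be told apart. At E11.5, the germ and endothelial samples were labelled as gonad with mesonephros. The study's methods state that the mesonephros stayed on for the germ cell sorts and limit this to no stage. It was taken off for endothelial sorts at E12.5 and E13.5, so dissected tissue may differ between germ and somatic cells at all stages. The sorts are bulk samples, in which fewer cells of a type and less RNA per cell cannot be told apart.

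Values are deposited log2 RMA expression levels of Affymetrix Mouse Gene 1.0 ST arrays, and the 91 arrays include 1 whole newborn mouse that was not used. Over the single-gene clusters, array medians ran from 6.76 to 7.03. The mean over 7 germ cell markers was 9.74 to 10.16 in germ groups and at most 7.16 elsewhere. The mean of 6 endothelial markers was 10.33 to 10.72 in *Flk1-mCherry* groups and at most 7.15 elsewhere. Supporting markers stood at 9.40 to 9.57 in XX and at up to 9.94 in XY supporting groups, but also at 8.61 to 9.21 in interstitial groups. XY supporting groups stood at 9.19 at E12.5 and lower at E13.5, below the 9.21 of E12.5 XX interstitial cells. The ranges of XY supporting and interstitial groups thus overlapped, although within each sex and stage the supporting group stood above the interstitial group. Red blood cell markers stood at 8.33 to 9.45 in endothelial groups against at most 7.60 elsewhere, and macrophage markers at 7.17 to 7.95 against at most 6.41. The 4 measured fetal Leydig markers reached 10.71 in E13.5 XY endothelial cells and 9.89 in E13.5 XY interstitial cells, and stayed at or below 6.13 in XX groups of those 4 lineages.

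Promoters are shown first because nuclear genes of the chain are known for shared binding sites of NRF1, GABP and YY1. RefSeq windows of 250 bases before to 50 bases after the transcription start (GRCm38.p6) were matched for 65 of the 78 genes, in 70 windows. The core of the NRF1 motif, searched as GCGC, an A, any base and GCGC in a run, was found on either strand in 24.3% of these windows against 4.6% of all 32851 windows. The ETS letters CCGGAAG, bound by GABP, were found in 24.3% against 8.86%, the YY1 letters AAGATGG in 14.3% against 6.34%, and the E-box CACGTG in 10% against 7.15%. Windows of the chain genes held a median of 19 CpG dinucleotides against 7 over all windows. The NRF1, ETS and E-box letters, which all contain CpG, thus differ in opportunity between the sets. A match is a description of letters and not a bound site. The 4 windows below include those of *Ndufs6* and *Atp5g2*, which were called higher in germ cells in all 6 comparisons with the somatic mean below. Both belong to the 3 of 12 matched genes of that kind that hold the NRF1 letters, so they do not stand for the 12. The remaining windows are those of *Cox7a1* and *Ndufa1*, which carried the largest differences between XX and XY germ cells. *Ndufs6*, an accessory subunit of complex I, has its window at chr13:73328433-73328732 on the minus strand, with the NRF1 letters, on the opposite strand, beginning 16 bases before and the YY1 letters 33 bases after the start. *Atp5g2*, a gene for the c subunit of ATP synthase, has its window at chr15:102670998-102671297 on the minus strand, with the NRF1 letters beginning 42 bases before the start. The window of *Cox7a1*, the muscle isoform of a complex IV subunit, lies at chr7:30183921-30184220 on the plus strand with 7 CpG, and that of *Ndufa1*, the X-linked subunit of complex I, at chrX:37191189-37191488 on the minus strand with 29 CpG, and neither holds any of the 4 motifs. Motif letters are in capitals.
Ndufs6: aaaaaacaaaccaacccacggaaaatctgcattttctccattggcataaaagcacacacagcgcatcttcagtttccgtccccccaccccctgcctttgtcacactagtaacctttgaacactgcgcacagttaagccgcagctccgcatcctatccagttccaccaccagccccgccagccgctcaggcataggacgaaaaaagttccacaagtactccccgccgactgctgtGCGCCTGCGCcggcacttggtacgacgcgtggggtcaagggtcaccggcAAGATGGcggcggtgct
Atp5g2: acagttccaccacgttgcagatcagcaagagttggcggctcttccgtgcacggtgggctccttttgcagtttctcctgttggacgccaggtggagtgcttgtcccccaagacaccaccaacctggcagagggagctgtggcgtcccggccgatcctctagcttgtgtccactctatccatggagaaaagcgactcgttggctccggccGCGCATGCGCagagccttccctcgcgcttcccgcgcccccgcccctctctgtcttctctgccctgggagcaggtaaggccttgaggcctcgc
Cox7a1: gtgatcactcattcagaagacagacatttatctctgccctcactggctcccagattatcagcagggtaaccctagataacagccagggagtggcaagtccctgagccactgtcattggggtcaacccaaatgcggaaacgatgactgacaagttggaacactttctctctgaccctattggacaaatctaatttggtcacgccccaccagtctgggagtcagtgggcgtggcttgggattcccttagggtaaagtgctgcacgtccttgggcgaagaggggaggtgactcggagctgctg
Ndufa1: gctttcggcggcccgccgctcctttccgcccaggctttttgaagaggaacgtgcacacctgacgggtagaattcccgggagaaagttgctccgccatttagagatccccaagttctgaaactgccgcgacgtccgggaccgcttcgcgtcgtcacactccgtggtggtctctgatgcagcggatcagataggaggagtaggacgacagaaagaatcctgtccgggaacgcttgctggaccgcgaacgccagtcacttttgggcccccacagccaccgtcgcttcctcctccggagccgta
The *Ndufs6* window carries both motif types close to the start, whereas the *Cox7a1* window carries none and has the fewest CpG of the 4. Among the 12 matched genes whose transcripts were higher in germ cells in all 6 comparisons below, 3 windows held the NRF1 letters, 1 the GABP letters, 3 the YY1 letters and 2 the E-box. Among the 22 matched genes never higher in germ cells, the counts were 6, 9, 2 and 0. The 12 genes include *Cox7b2*, which passed the filter on low values in germ groups only. These counts are small and were not tested.

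Most chain genes varied little between cell types. The range of a gene's 30 group means had a median of 0.75 on the log2 scale. *Uqcrh*, the hinge subunit of complex III, had the narrowest range at 0.34, followed by *Cox5b* at 0.37, *Sdhc*, a membrane anchor of complex II, at 0.39 and *Cox6b1*, the widely expressed 6b isoform of complex IV, at 0.40. At the other end stood isoforms of complex IV. *Cox6b2*, the testis isoform of subunit 6b, ranged over 3.66, from 7.76 in E11.5 XY endothelial cells to 11.42 in E12.5 XX supporting cells. *Cox7a1*, the heart and muscle isoform of subunit 7a, ranged over 3.48, from 7.32 in E11.5 XX interstitial cells to 10.80 in E12.5 XX germ cells. *Cox7b2* followed at 2.45 and *Ndufs5*, an accessory subunit of complex I, at 2.20. The genes moved together only loosely, with a median correlation of 0.28 over the 24 group means for all 3003 pairs of genes, 0.32 within a complex and 0.27 between complexes, given as a description of groups that share arrays.

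**Figure D1:**
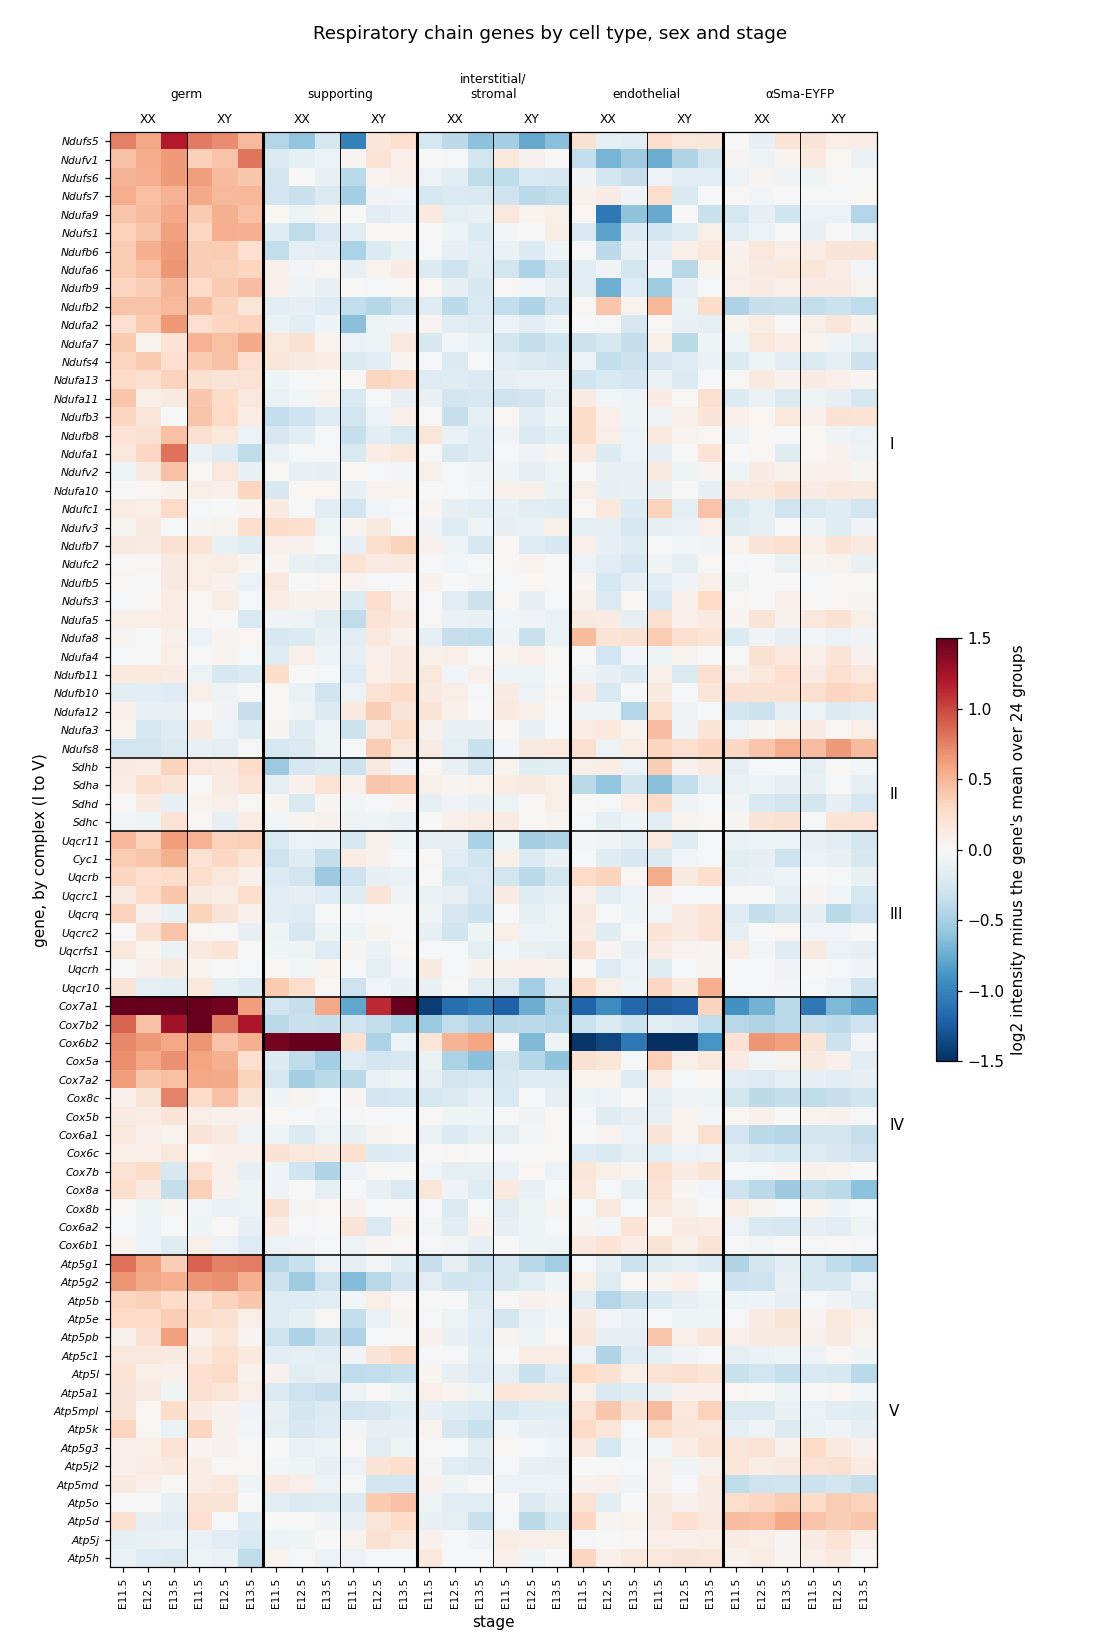
Group means of the 78 genes (1 line each, within complexes I to V) in 30 groups of 3 arrays by lineage, sex and stage, as the difference on the log2 scale from the gene's own mean over the 24 groups without *αSma-EYFP*, with the colour scale limited at 1.5 in either direction. The germ cell columns hold the most values above 0, and *Cox7a1*, *Cox6b2* and *Cox7b2* span the widest ranges (3.48, 3.66 and 2.45).

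Centred on each gene's mean, the median over the 78 genes was higher in every germ group than in every somatic group. Germ group means of this median were 0.20, 0.15 and 0.19 for XX cells at E13.5, E12.5 and E11.5 and 0.19, 0.15 and 0.08 for XY cells in stage order. The highest somatic group was E13.5 XY endothelial at 0.06 and the lowest E13.5 XX interstitial at -0.15. Neighbouring groups in this order differed by less than the spread of their arrays, since germ groups had an SD of 0.05 to 0.09 over 3 arrays.

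To ask whether the chain differed between germ and somatic cells, each germ group was compared with the equally weighted mean of the supporting, interstitial and endothelial groups of the same sex and stage by limma, with a Benjamini-Hochberg adjusted p-value under 0.05 over all 16820 tested clusters. In XX cells, 30 of 78 genes were higher and 1 lower in germ cells at E11.5, where 25.3% of all tested clusters were higher and 25.4% lower. At E12.5, 39 were higher and 1 lower, against 27% and 26.2% of all clusters. At E13.5, 42 were higher and 1 lower, against 26.3% and 26.6%. So on the deposited scale 38.5%, 50% and 53.8% of the chain genes were higher in XX germ cells, above the share of all clusters. Hardly any were lower. In XY cells, 34 genes were higher and 1 lower at E11.5, against 27% and 25.4% of all clusters. At E12.5, 34 were higher and 2 lower, against 26% and 25.9%. At E13.5, 24 were higher and 7 lower, against 27% and 25.2%. The XY E13.5 comparison was the closest to the background, with 30.8% of the chain genes higher. *Cox7b2*, which passed the filter on low values in germ groups only, is among the higher genes in every one of these counts. It is also among those with quantile normalization and against supporting cells alone below, and its calls support nothing.

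The median differences were small. They were 0.19, 0.21 and 0.27 on the log2 scale in XX cells and 0.22, 0.15 and 0.04 in XY cells in stage order, where the medians over all tested clusters lay between -0.03 and 0.02. Scaling changed the counts. When quantile normalization was put on top of the deposited values, the higher and lower genes numbered 19 and 8, 27 and 7, and 39 and 4 in XX cells. In XY cells they numbered 21 and 7, 21 and 11, and 20 and 18. Of all clusters, 25.7%, 26% and 26.5% were higher in XX and 26%, 26.9% and 28.9% in XY cells, and 23.9% to 25.4% were lower. The share of chain genes that were higher was then above that of all clusters at XX E12.5 and E13.5. It was near or below that of all clusters at XX E11.5 and in XY cells. The medians then became 0.06, 0.07 and 0.18 in XX cells and 0.05, 0.01 and -0.03 in XY cells, so the sign of the median at XY E13.5 turned.

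**Figure D2:**
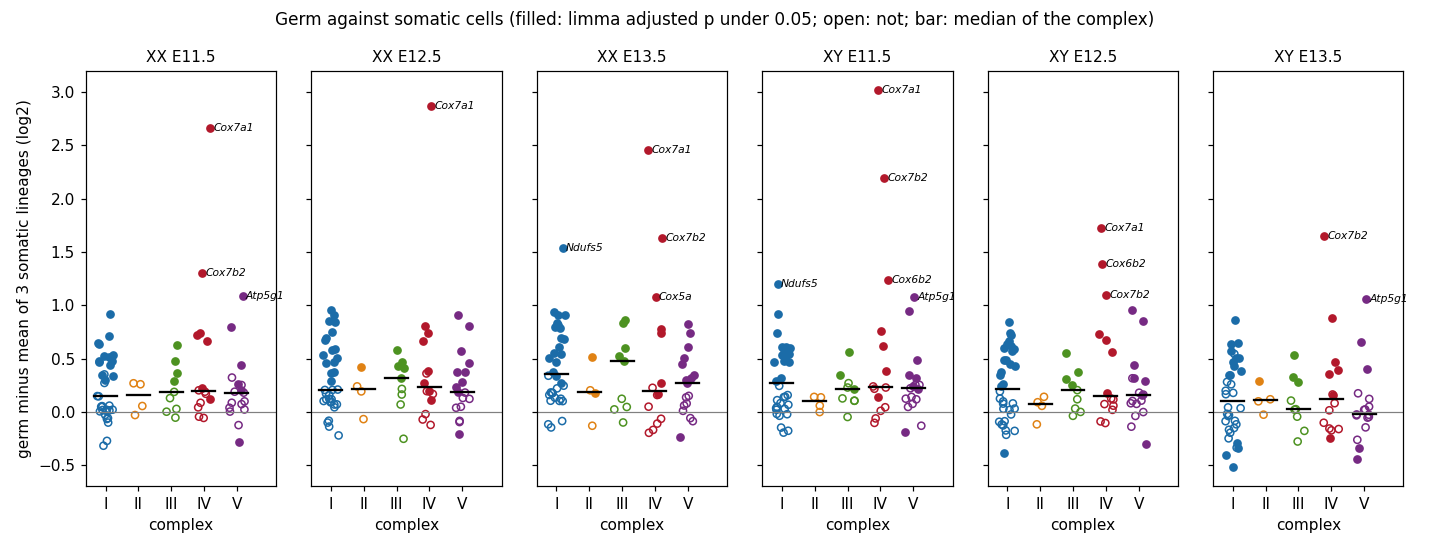
Difference on the log2 scale between germ cells and the mean of supporting, interstitial and endothelial cells for each of the 78 genes (points, by complex) in XX and XY cells of the 3 stages, filled where the limma adjusted p was under 0.05, with a bar at the median of each complex. Most points lie a little above 0, with medians over all 78 genes of 0.19, 0.21 and 0.27 in XX cells and 0.22, 0.15 and 0.04 in XY cells, and a few isoform genes lie far above the rest. The points include *Cox7b2*, which passed the filter on low values in germ groups only.

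Across the 6 comparisons, 15 genes (of 78) were higher in germ cells in all of them, where 13.6% of all clusters were. One of them, *Cox7b2*, passed the filter on low values through germ groups only, so its calls follow from that filter and support nothing, and 14 of the other 77 genes were higher in all 6. The 15 were *Ndufv1*, *Ndufs1*, *Ndufs4*, *Ndufs6*, *Ndufs7*, *Ndufa6* and *Ndufb9* of complex I, *Cyc1* and *Uqcr11* of complex III, *Cox5a*, *Cox7a2* and *Cox7b2* of complex IV, and *Atp5b*, *Atp5g1* and *Atp5g2* of complex V. With quantile normalization 10 genes were, and 9 genes were in both: *Atp5g1*, *Atp5g2*, *Cox5a*, *Cox7a2*, *Cox7b2*, *Ndufs1*, *Ndufs6*, *Ndufs7* and *Ndufv1*. The share of all clusters higher in all 6 was not computed with quantile normalization. A call as higher in at least 1 comparison was made for 55 genes (42.2% of all clusters) and as lower in at least 1 for 8 genes (43.8%). There were 16 genes with no call in any comparison, beside 19.4% of all clusters. Against each somatic lineage taken singly, 18 comparisons in all, only *Atp5g1* and *Atp5g2* of the other 77 genes were higher in germ cells in every one, beside 6.63% of all clusters.

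Germ and supporting cells share a strain cross, so they were also set against each other alone. In XX cells, 30 genes were higher and 1 lower in germ cells at E11.5 (24.6% and 23.5% of all clusters), 33 and 1 at E12.5 (24.2% and 23.1%), and 37 and 1 at E13.5 (22.5% and 24.3%). In XY cells, 36 were higher and 1 lower at E11.5 (25% and 22.9%), 21 and 5 at E12.5 (24.3% and 22.7%), and 17 and 11 at E13.5 (23.8% and 21.7%). At XY E13.5 the share of chain genes higher in germ cells, 21.8%, was thus no larger than that of all clusters.

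Complex I had 14, 16 and 19 of its 34 genes higher in XX germ cells and 17, 17 and 11 in XY germ cells in stage order, with none lower except 1 at XY E12.5 and 4 at XY E13.5. The called genes included subunits of its electron-carrying arm. *Ndufv1*, which binds NADH, lay between 9.78 and 10.38 with a median of 10.01 over 18 germ arrays, and between 8.52 and 9.93 with a median of 9.37 over 54 somatic arrays. *Ndufs1*, which carries iron-sulphur clusters, lay at 9.58 to 10.19 with a median of 9.85 in germ arrays and at 8.30 to 9.65 with a median of 9.28 in somatic arrays. *Ndufs7*, another iron-sulphur subunit, lay at 8.83 to 9.36 with a median of 9.13 against 7.98 to 9.31 with a median of 8.41. For these genes nearly all somatic arrays lay under the lowest germ array, since only 5, 3 and 1 of 54 lay above it. The difference of *Ndufv1* was 0.64, 0.85 and 0.94 in XX cells and 0.54, 0.49 and 0.86 in XY cells (SE 0.13, limma adjusted p from 1.68e-08 to 0.00136). That of *Ndufs1* ran from 0.47 to 0.85 (SE 0.12, adjusted p from 3.45e-08 to 0.001), and that of *Ndufs7* from 0.59 to 0.74 (SE 0.11, adjusted p from 1.57e-07 to 1.54e-05).

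Other subunits of complex I followed. *Ndufs6*, an accessory subunit, had germ arrays at 11.85 to 12.30 (median 12.06) and somatic arrays at 10.68 to 11.75 (median 11.36), so no somatic array reached the lowest germ array. Its difference ran from 0.50 to 0.92 (SE 0.12, limma adjusted p from 2.9e-09 to 0.0003). *Ndufs5* had the largest differences of complex I. Its XX germ arrays read 10.63, 10.58 and 10.40 at E11.5, 10.75, 10.55 and 9.78 at E12.5 and 11.32, 11.00 and 10.59 at E13.5. Its XY germ arrays read 10.65, 10.75 and 10.28, then 10.72, 10.73 and 10.01, then 10.69, 10.19 and 9.90. Over the 54 somatic arrays it lay at 8.56 to 10.35, so 21 of them lay above the lowest germ array and the spread within a germ group reached about 1 log2 unit. Its difference was 0.92, 0.96 and 1.54 in XX cells and 1.20, 0.85 and 0.55 in XY cells (SE 0.24), with an adjusted p of 0.0533 for the last. *Ndufa9* was higher in germ cells by 0.57 to 0.91 in 5 comparisons (SE 0.21) and by 0.35 at XX E11.5 (adjusted p = 0.165), although the XX E12.5 call was lost against supporting cells alone (adjusted p = 0.0726). Of the genes named *Nduf*, *Ndufa3*, *Ndufa4*, *Ndufa8*, *Ndufb5*, *Ndufb10*, *Ndufs3* and *Ndufv3* were called in none of the 6 comparisons on the deposited scale. With quantile normalization *Ndufa3*, *Ndufa4*, *Ndufa8*, *Ndufb5* and *Ndufb10* were lower in 1 or 2 of them. Thus members of the same complex, and of the same arm of it, differed in whether they were called.

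Complex II, the succinate dehydrogenase of the citric acid cycle, had 0, 1 and 2 of 4 genes higher in XX germ cells and 0, 0 and 1 in XY germ cells. *Sdhb*, its iron-sulphur subunit, read 10.30, 10.09 and 10.25 in E13.5 XX germ cells and 10.31, 10.04 and 10.10 in E13.5 XY germ cells, within a somatic range of 9.20 to 10.79. Its difference was 0.51 at XX E13.5 (SE 0.12, adjusted p = 0.000173) and 0.29 at XY E13.5 (adjusted p = 0.0312). *Sdha*, the flavoprotein, was higher only at XX E12.5 (0.42, adjusted p = 0.00319) and *Sdhc* only at XX E13.5 (0.18), while the anchor *Sdhd* was called in no comparison. Complex III had 4, 5 and 5 of 9 genes higher in XX germ cells and 3, 4 and 3 in XY germ cells, with none lower. *Cyc1*, cytochrome c1, lay at 10.58 to 11.05 (median 10.80) in germ arrays and at 9.69 to 10.82 (median 10.35) in somatic arrays, of which 3 lay above the lowest germ array. Its difference grew from 0.48 at XX E11.5 to 0.83 at XX E13.5 (SE 0.09, adjusted p = 3.83e-11), and was 0.22, 0.37 and 0.28 in XY cells. *Uqcrc2*, a core subunit, was higher at XX E12.5 (0.47) and XX E13.5 (0.48), with values of -0.03 to -0.18 in the XY comparisons, none of them called. *Uqcrfs1*, the Rieske protein, was called only at XY E12.5 (0.25).

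ATP synthase had 5, 9 and 9 of 17 genes higher in XX germ cells and 7, 6 and 3 in XY germ cells, with 1 lower in each of 5 comparisons and 2 lower at XY E13.5. *Atp5b*, the catalytic beta subunit, lay at 12.17 to 12.47 (median 12.26) in germ arrays and at 11.35 to 12.22 (median 11.85) in somatic arrays, and was higher by 0.32 to 0.57 (SE 0.09). The c ring is made of a subunit that 3 genes encode as the same mature protein, and these genes differed from each other. *Atp5g1* read 10.24, 10.29 and 10.04 in E11.5 XX germ cells and 10.28, 10.39 and 10.12 in E11.5 XY germ cells, against 8.65 to 9.56 over the 54 somatic arrays. At E13.5 it read 10.09, 9.75 and 9.37 in XX germ cells and 10.16, 10.31 and 9.93 in XY germ cells, so only the third E13.5 XX germ array reached the somatic range. Its difference was 1.09, 0.81 and 0.61 in XX cells and 1.08, 0.95 and 1.06 in XY cells (SE 0.13, adjusted p from 2.32e-10 to 5.94e-05). *Atp5g2* lay at 10.99 to 11.85 in germ arrays and at 10.03 to 11.31 in somatic arrays, and was higher by 0.66 to 0.95 (SE 0.17, adjusted p from 2.45e-06 to 0.000623). *Atp5g3* lay at 11.40 to 11.87 against 11.17 to 11.87, with differences of 0.23 (adjusted p = 0.0348) at XX E12.5 and 0.32 (adjusted p = 0.00398) at XX E13.5 and of -0.02 to 0.08 elsewhere. The germ cell excess of the c subunit transcripts was therefore measured for *Atp5g1* and *Atp5g2* at all stages and for *Atp5g3* only in later XX cells.

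Complex IV held the largest differences, and they lay in its paralogs. *Cox7a1*, known from heart and skeletal muscle, read 10.01, 10.70 and 10.57 in XX germ cells at E11.5, 10.92, 11.13 and 10.35 at E12.5 and 10.96, 10.63 and 10.31 at E13.5. In XY germ cells it read 10.43, 11.15 and 10.44 at E11.5, 10.48, 9.99 and 10.07 at E12.5 and 9.84, 9.43 and 8.82 at E13.5. Interstitial arrays lay at 7.21 to 8.13 in XX and 7.08 to 8.52 in XY cells. Germ arrays thus lay over 1 log2 unit above the interstitial arrays in all groups but E13.5 XY. Supporting cells split by sex, with XX arrays at 7.74 to 9.48 and XY arrays at 7.32, 7.91 and 8.62 at E11.5, 9.61, 10.14 and 9.80 at E12.5 and 9.94, 10.60 and 10.25 at E13.5. Germ cells exceeded the somatic mean by 2.66, 2.87 and 2.46 in XX cells (SE 0.25, 6.32-, 7.32- and 5.50-fold, limma adjusted p = 3.54e-13, 2.26e-14 and 3.85e-12). In XY cells the difference was 3.02 at E11.5 (8.12-fold, adjusted p = 4.49e-15), 1.73 at E12.5 (3.31-fold, adjusted p = 6.61e-08), where germ and supporting arrays overlapped, and 0.17 at E13.5 (adjusted p = 0.624). Against XY supporting cells alone the germ value was higher by 0.33 at E12.5 (adjusted p = 0.412) and lower by -0.90 at E13.5 (adjusted p = 0.0151).

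The widely expressed paralog *Cox7a2* behaved more evenly. It read 11.55, 11.71 and 11.60, then 11.49, 11.53 and 11.23, then 11.55, 11.41 and 11.39 in XX germ cells. In XY germ cells it read 11.57, 11.66 and 11.51, then 11.59, 11.65 and 11.47, then 11.44, 11.40 and 11.13, against 10.37 to 11.35 over the somatic arrays. In none of the 6 comparisons did its germ and somatic arrays overlap. It was higher in germ cells by 0.74, 0.66 and 0.74 in XX and 0.76, 0.68 and 0.40 in XY cells (adjusted p from 3.6e-08 to 0.00176). *Cox5a*, which has no isoform in the set, was higher by 0.72, 0.81 and 1.08 in XX cells and by 0.62, 0.74 and 0.47 in XY cells (SE 0.14).

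*Cox6b2*, known as the testis isoform of subunit 6b, was highest in XX supporting cells. It read 11.31, 11.13 and 10.99 there at E11.5, 11.35, 11.50 and 11.41 at E12.5 and 11.34, 11.19 and 11.19 at E13.5. In XY supporting cells it read 9.78, 9.97 and 10.07, then 9.21, 9.43 and 9.06, then 9.61, 9.72 and 9.51. Germ arrays lay at 9.90 to 10.68 over both sexes, below every XX supporting array, and endothelial arrays lay lowest at 6.94 to 9.21. Germ cells were lower than XX supporting cells by -0.72, -1.06 and -0.96 (adjusted p = 0.0155, 0.000349 and 0.00126), yet higher than the XY somatic mean by 1.23, 1.39 and 0.88. The paralog *Cox6b1* lay between 12.46 and 13.15 on every sorted array, and was called on the deposited scale at XY E13.5 alone, lower in germ cells by -0.24 (adjusted p = 0.00408).

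*Cox7b2* and *Cox8c*, both known from the testis, were near the low end of the array's scale. *Cox7b2* read 5.70, 6.35 and 6.56, then 5.94, 5.44 and 5.92, then 6.56, 6.35 and 6.86 in XX germ cells. In XY germ cells it read 7.56, 7.16 and 6.95, then 6.52, 5.53 and 6.26, then 6.29, 7.04 and 6.31. All other sorted arrays lay at 4.74 to 5.48, and 1 somatic array lay above the lowest germ array. Since the somatic arrays all lay under the filter limit of 6, which the gene passed in germ groups only, no test, difference or fold against somatic cells is given for it. *Cox8c* lay at 6.12 to 7.35 in germ arrays, with 7.35, 6.83 and 6.71 in E13.5 XX germ cells, and was higher in germ cells in 5 comparisons by 0.27 to 0.78. The heart and muscle isoforms *Cox6a2* (6.44 to 7.32 over all sorted arrays) and *Cox8b* (5.63 to 6.26) were called in no germ comparison, and neither was *Cox8a*. Of the isoforms known from muscle, *Cox7a1* was thus the only one of the 3 measured that differed between germ and somatic cells by the test.

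**Figure D3:**
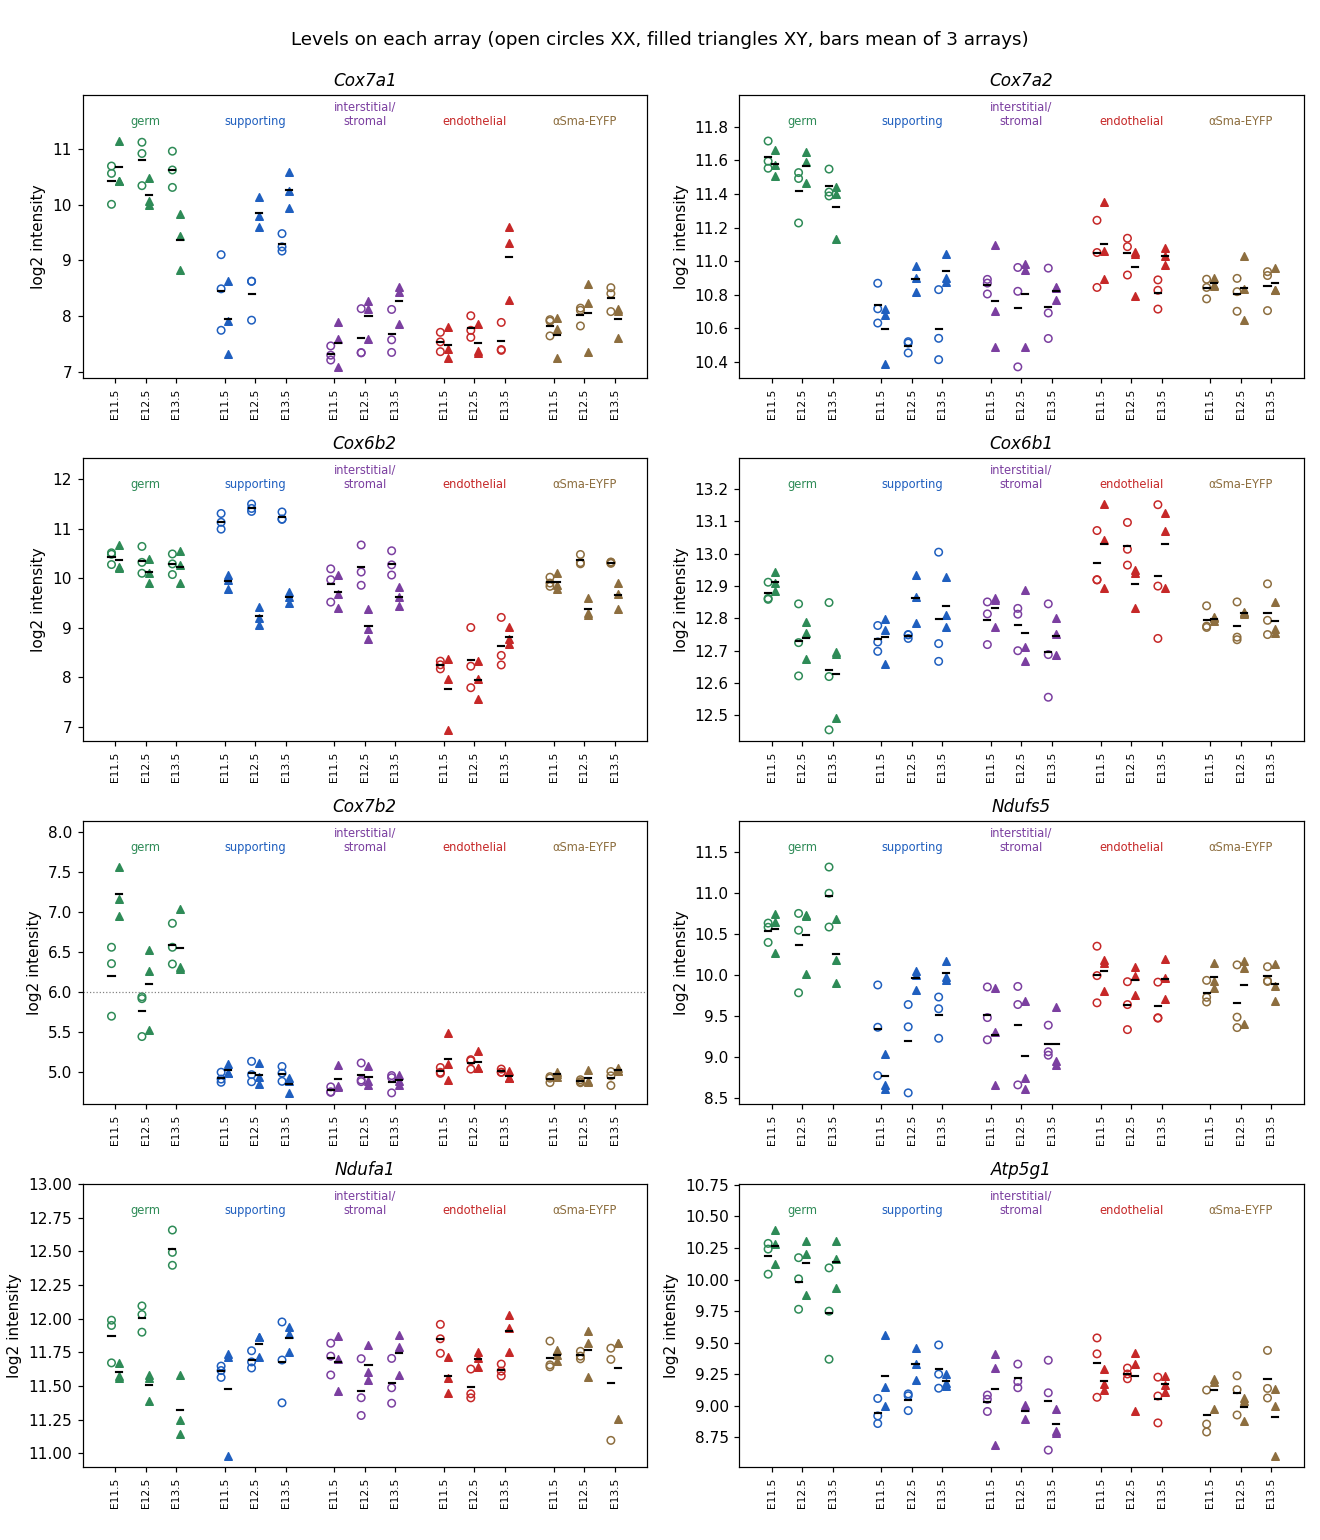
Log2 expression level on each sorted array (points) with the mean of 3 arrays (bar) for *Cox7a1*, *Cox7a2*, *Cox6b2*, *Cox6b1*, *Cox7b2*, *Ndufs5*, *Ndufa1* and *Atp5g1*, by lineage, sex and stage, with a scale of its own for each gene. *Cox7a1* is high in germ cells and in XY supporting cells from E12.5, *Cox6b2* is highest in XX supporting cells, and *Ndufa1* reaches 12.40, 12.49 and 12.66 in E13.5 XX germ cells.

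On the deposited scale 8 genes were lower in germ cells in at least 1 comparison, and 7 of these were never higher. With quantile normalization 25 genes were lower in at least 1 comparison, *Atp5h* and *Atp5j* in all 6, and *Cox6b1* and *Ndufa12* in 4. The share of all clusters lower in at least 1 comparison was 43.8% on the deposited scale. It was not computed with quantile normalization. *Atp5h*, the d subunit of the stalk that holds ATP synthase in place, was lower in 4 comparisons, by -0.28, -0.20 and -0.23 in XX cells and -0.44 at XY E13.5. At XY E13.5 it read 11.09, 10.98 and 10.94 in germ cells against 11.27 to 11.61 in somatic cells, without overlap. *Atp5j*, subunit F6 of the same stalk, was lower in XY germ cells by -0.18, -0.30 and -0.34. The XX calls of *Atp5h* and the E11.5 call of *Atp5j* were lost on leaving out single arrays or against supporting cells alone. On the deposited scale *Ndufa5*, *Ndufa12*, *Ndufb11* and *Cox6b1* were lower at XY E13.5 alone, by -0.24 to -0.40. With quantile normalization they were lower in 2, 4, 3 and 4 comparisons. The calls of *Ndufa12* (adjusted p = 0.0724) and *Ndufb11* (adjusted p = 0.115) were lost without the third germ array. *Ndufs8* was lower at XY E12.5, by -0.38, a call lost on leaving out single arrays (adjusted p up to 0.194), and in 2 comparisons with quantile normalization. *Ndufa1* was the single gene called in both directions on the deposited scale.

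XX and XY germ cells were compared at each stage. At E11.5, 1 chain gene was higher in XY cells and none lower, against 0.0832% and 0.119% of all clusters. The gene was *Cox7b2*, higher by 1.02 (adjusted p = 0.00043). At E12.5, none was higher and 1 lower, against 1.71% and 2.77%. The gene was *Ndufa1*, and a fit with the replicate number as a block called 2 genes at this stage. Same-numbered XX and XY germ samples deviated together to some degree at each stage, with r over clusters of 0.08 to 0.23 at E11.5, 0.13 to 0.21 at E12.5 and 0.01 to 0.17 at E13.5. At E13.5, none was higher and 10 were lower in XY cells, against 10.9% higher and 10.1% lower of all clusters. All 10 calls thus pointed the same way, with a median over the 78 genes of -0.11 beside 0.02 over all clusters.

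The largest E13.5 differences were those of *Cox7a1* and *Ndufa1*. *Cox7a1* was lower in XY than XX germ cells by -1.27 (2.41-fold, adjusted p = 0.00161), from the arrays given above, which do not overlap. *Ndufa1*, an X-linked accessory subunit needed for the assembly of complex I, read 11.67, 11.95 and 11.99 in XX germ cells at E11.5, 12.09, 12.03 and 11.90 at E12.5 and 12.49, 12.40 and 12.66 at E13.5. In XY germ cells it read 11.56, 11.67 and 11.57, then 11.58, 11.56 and 11.39, then 11.58, 11.24 and 11.14. The sexes stood close at E11.5 and apart at E13.5. The XY minus XX difference was -0.27 at E11.5 (adjusted p = 1), -0.50 at E12.5 (adjusted p = 0.0168, up to 0.113 without single arrays) and -1.19 at E13.5 (2.29-fold, adjusted p = 5.17e-10). Somatic arrays of *Ndufa1* lay at 10.98 to 12.03, so germ cells exceeded the somatic mean by 0.15, 0.46 and 0.91 in XX cells, and by 0.02, -0.21 and -0.51 in XY cells (adjusted p = 7.7e-05 for the last). The other 8 genes were *Atp5pb* (-0.58), *Ndufv2* (-0.56), *Uqcrc2* (-0.55), *Ndufb8* (-0.54), *Cox8c* (-0.53), *Ndufb7* (-0.40), *Ndufb11* (-0.34) and *Cyc1* (-0.31), which come from complexes I, III, IV and V.

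The 3 X-linked genes differed in where XX and XY cells were called different, and the part of X-linkage was not tested. Chromosomes were taken from the gene, and the genomic position of each cluster was not checked. *Ndufb11* and *Cox7b* each had a second cluster, which followed the one used with a correlation of 0.81 and 0.93 over group means. *Ndufb11* was lower in XY germ cells by -0.24, -0.39 (adjusted p = 0.0604) and -0.34 (adjusted p = 0.0464) and in XY supporting cells at E11.5 by -0.47 (adjusted p = 0.00857), but higher in XY endothelial cells at E13.5 by 0.46 (adjusted p = 0.0149). *Cox7b* was called in germ cells at no stage and was higher in XY supporting cells at E13.5 by 0.45 (adjusted p = 0.0131).

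The sex difference itself was then compared between germ and somatic cells at E13.5. The XY minus XX difference was lower in germ cells than in the mean of the 3 somatic lineages for 20 genes and higher for none, against 12.5% and 11.2% of all clusters, with medians of -0.21 for the chain and 0.03 for all clusters. With quantile normalization 27 were lower and 2 higher, against 12.6% and 11.7% of all clusters. Without the third XY germ array 8 were lower and 1 higher, and without the first XX germ array 9 were lower and 2 higher. *Cox7a1* differed by -2.29 (adjusted p = 1.42e-06), *Ndufa1* by -1.42 (adjusted p = 1.92e-10), *Ndufs5* by -0.99 (adjusted p = 0.0267, but up to 0.121 without single arrays) and *Ndufb11* by -0.52 (adjusted p = 0.00539). Between stages, the germ sex difference was lower at E13.5 than at E11.5 for 6 genes and higher for none, against 4.37% and 4.74% of all clusters. *Cox7a1* changed by -1.52 (adjusted p = 0.0182, up to 0.0944 without single arrays), *Cox7b2* by -1.06 (adjusted p = 0.00211) and *Ndufa1* by -0.92 (adjusted p = 0.000494), and the other 3 genes were *Cox8c*, *Ndufv2* and *Uqcrc2*. Only 3 calls were made without the first E11.5 XX germ array, and likewise without the third E13.5 XY germ array.

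XX and XY supporting cells were compared in the same way. At E11.5, 1 gene was higher in XY cells, against 5.67% of all clusters, and 5 were lower, against 3.92%. *Cox6b2* was lower by -1.20 (2.30-fold, adjusted p = 0.000469), followed by *Uqcr10* (-0.71), *Ndufa2* (-0.53), *Ndufb11* and *Ndufs4* (-0.39), and *Cyc1* was higher by 0.42. Without the first XY array only 2 genes were called, and the calls of *Ndufa2* (-0.29, adjusted p = 0.31) and *Cyc1* (0.28, adjusted p = 0.182) were lost. The call of *Cyc1* was also lost without the first XX array. At E12.5, 17 were higher, against 16.9%, and 5 lower, against 13.8%. At E13.5, 12 were higher and 2 lower, against 14.7% in each direction. The shares of chain genes, 21.8% and 15.4% higher, were near the background, while those lower, 6.41% and 2.56%, were under it. At E12.5, 10 genes in all were called without the first XX array, 11 without the second and 14 without the third XY array. At E13.5, 7 were called without the second XX and 8 without the second XY array.

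*Cox7a1* was higher in XY supporting cells by 1.46 at E12.5 (adjusted p = 0.000179) and 0.96 at E13.5 (adjusted p = 0.0145, up to 0.0912 without single arrays). *Cox6b2* went the other way, lower by -2.19 at E12.5 (4.56-fold, adjusted p = 2.93e-10) and -1.63 at E13.5 (3.09-fold, adjusted p = 5.38e-07), and XX and XY arrays overlapped at no stage. *Atp5o*, the stalk subunit that confers oligomycin sensitivity, was higher at both stages. It read 10.97, 11.07 and 10.77 in E12.5 XY cells and 11.05, 10.96 and 10.92 at E13.5, higher than XX cells by 0.60 and 0.63. *Ndufs5* was higher by 0.77 at E12.5 (adjusted p = 0.0411), a call lost without the first XX array (0.46, adjusted p = 0.327) or any 1 of the XY arrays, and *Ndufb10* by 0.60 at E13.5 (adjusted p up to 0.0683 without single arrays). *Cox6c* was lower by -0.38 and -0.33, with XY arrays at 12.81, 12.85 and 12.87 at E12.5 against 13.14 to 13.31 over all XX supporting arrays, and *Atp5md* was lower by -0.38 at E12.5. Fetal Leydig markers moved with these comparisons, with a list mean over 4 genes of 5.71 in XX and 6.11 in XY supporting cells at E12.5 and of 5.76 and 7.13 at E13.5, and red blood cell markers stood at 6.99 and 7.60, then 7.03 and 7.20. Their part in the differences was not tested, and the reporters differ between XX and XY supporting cells at both stages.

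**Figure D4:**
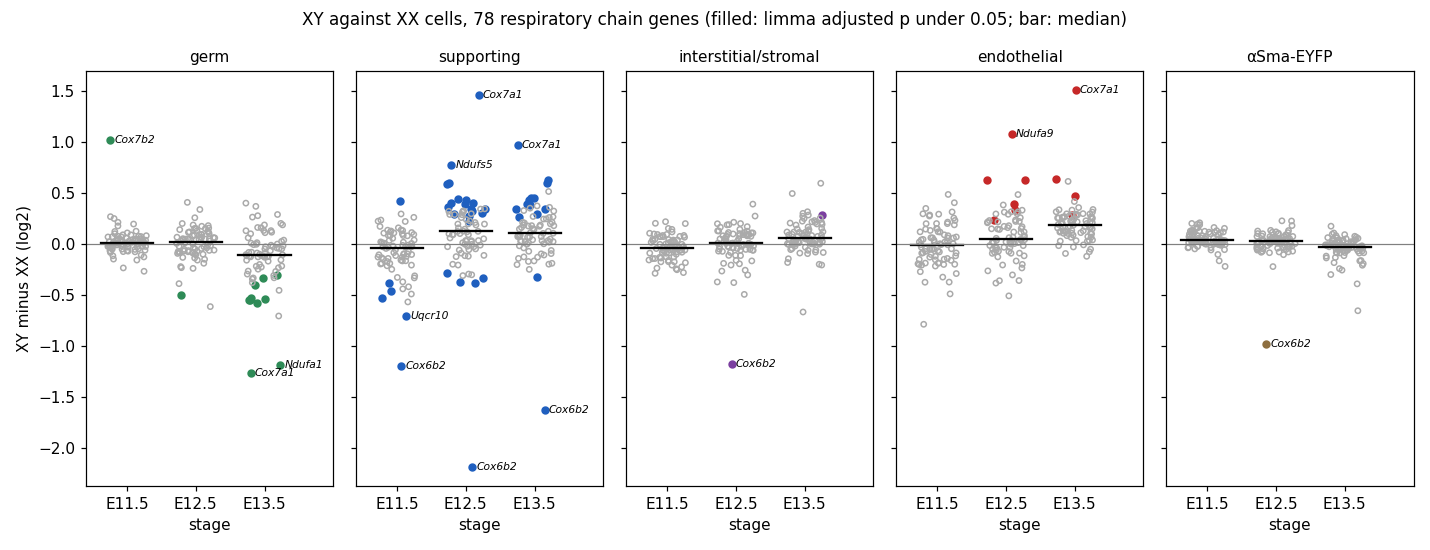
XY minus XX difference on the log2 scale for the 78 genes (points) in germ, supporting, interstitial, endothelial and *αSma-EYFP* cells of the 3 stages, filled where the limma adjusted p was under 0.05, with a bar at the median. Germ cells at E13.5 hold 10 called genes, all below 0, while supporting cells at E12.5 hold 17 above and 5 below 0, with *Cox6b2* at -2.19 as the lowest.

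The remaining somatic cells showed few sex differences. In interstitial cells no chain gene was called at E11.5, where limma gave none an unadjusted p under 0.05 and 0.196% of all clusters were higher and 0.0416% lower. At E12.5, 1 gene was lower and none higher, against 2.85% and 3.07%. This was *Cox6b2*, with 10.13, 10.67 and 9.86 in XX and 8.97, 9.39 and 8.78 in XY cells, a difference of -1.17 (adjusted p = 0.000943). At E13.5, 1 gene, *Atp5c1*, was higher by 0.28 (adjusted p up to 0.155 without single arrays) and none lower, against 5.14% and 3.53%. Leydig markers differed by sex in the same sort, with list means of 7.74 in E12.5 and 9.89 in E13.5 XY interstitial cells against 5.59 and 5.67 in XX cells, and their part was not tested.

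In endothelial cells no chain gene was called at E11.5 by limma, although 8 had an unadjusted p under 0.05, against 0.214% of all clusters higher and 0.767% lower. Without the first XY array 10 genes were called. At E12.5, the XY cells had 6 higher and no lower genes, against 2.86% and 0.69%. *Ndufa9* led, with 10.28, 9.65 and 9.19 in XX and 10.44, 10.86 and 11.03 in XY cells, a difference of 1.07, followed by *Ndufb9* and *Ndufs1* (both 0.62), *Atp5c1* (0.39), *Ndufa4* (0.34) and *Cox5b* (0.23). The XX arrays of *Ndufa9* spread over more than 1 log2 unit. Without single arrays the adjusted p reached 0.0984 for *Ndufa9*, 0.263 for *Ndufb9* and 0.13 for *Ndufs1*, and 1 gene was called without the second XX array, 2 without the third XX or the third XY array and 3 without the second XY array. At E13.5, 4 were higher and none lower, against 3.82% and 1.49%. *Cox7a1* read 9.59, 8.29 and 9.31 in XY cells and 7.88, 7.40 and 7.38 in XX cells, a difference of 1.51, followed by *Ndufc1* (0.64, adjusted p = 0.148 without the third XY array), *Ndufb11* (0.46, adjusted p up to 0.06 without single arrays) and *Ndufc2* (0.28). Without the first or the third XY array, 2 genes were called. The Leydig list mean was 8.29 in XY and 5.56 in XX cells at E12.5 and 10.71 and 5.59 at E13.5. At E13.5 interstitial markers stood at 8.56 in XY and 7.79 in XX cells and germ markers at 7.16 and 6.86. The part of these lists in the differences was not tested. In *αSma-EYFP* cells, fitted with all 90 arrays, limma called no gene at E11.5 (none with an unadjusted p under 0.05) and none at E13.5 (1 with an unadjusted p under 0.05), against 0.225% higher and 0.0237% lower, and 2.49% and 3.24%, of 16859 clusters. At E12.5, 1 gene was lower and none higher, against 2.62% and 2.53%. It was again *Cox6b2*, with 10.29, 10.32 and 10.48 in XX and 9.29, 9.25 and 9.60 in XY cells, a difference of -0.98 (adjusted p = 0.00321).

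Between E11.5 and E13.5, XX germ cells had 7 genes that rose and 7 that fell, against 12.8% and 12.6% of all clusters. *Cox8c* (0.66), *Ndufa1* (0.65) and *Atp5pb* (0.55), the b subunit of the ATP synthase stalk, rose most, before *Ndufv2* (0.50), *Uqcrc2* (0.42), *Ndufa2* (0.39) and *Sdhc* (0.26). *Cox8a* read 10.04, 10.25 and 10.11 at E11.5 and 10.00, 9.48 and 9.04 at E13.5, and fell by 0.63, a call lost without the third E13.5 array (adjusted p = 0.0612). *Cox7b* and *Uqcrq* fell by 0.46, *Atp5g1* by 0.45, *Atp5d* by 0.41, *Atp5a1* by 0.26 and *Cox6b1* by 0.24. The calls of *Cox7b* (-0.26, adjusted p = 0.261) and *Uqcrq* (adjusted p = 0.105) were likewise lost without that array, and only 4 calls in all, none of them lower at E13.5, were made without it. There were 9 calls without the second E13.5 array and 7 without the first E11.5 array. From E12.5 to E13.5 alone, 4 genes rose and 2 fell in XX germ cells, against 4.92% and 5.84%.

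XY germ cells had 1 gene that rose and 6 that fell from E11.5 to E13.5, against 8.9% and 7.72% of all clusters. *Cox7a1* fell by 1.31, *Cox7b2* by 0.68 (adjusted p up to 0.0673 without single arrays), *Cox8a* by 0.44, *Atp5d* by 0.44 (-0.24, adjusted p = 0.454 without the third E13.5 array, and lost without 3 other arrays), *Atp5h* by 0.31 and *Cox6b1* by 0.29, and *Ndufv1* rose by 0.44, a call lost on leaving out any single array of these groups. With all arrays *Cox8a*, *Atp5d* and *Cox6b1* fell in both sexes. In XY germ cells 2 genes were called without the first and 3 without the second E11.5 array, and 4 without the second and 2 without the third E13.5 array. The median over the 78 genes was 0.06 in XX and -0.13 in XY germ cells, beside -0.01 and 0.01 over all clusters.

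XX supporting cells had no called gene, against 7.78% of all clusters higher and 4.2% lower at E13.5, with 11 genes at an unadjusted limma p under 0.05. XY supporting cells had 16 genes that rose and 2 that fell, against 14% and 10.2%. *Cox7a1* rose by 2.31 (4.96-fold, adjusted p = 5.08e-08), *Ndufs5* by 1.26 (adjusted p = 0.000929) from 8.66, 9.04 and 8.61 to 10.17, 9.94 and 9.98, *Atp5o* by 0.64, *Ndufa3* by 0.61 and *Ndufa2* by 0.57. *Cox6c* fell by 0.44, from 13.29, 13.28 and 13.32 to 12.84, 12.93 and 12.80, and *Atp5md* by 0.27 (adjusted p up to 0.0722 without single arrays). The calls lay in the step to E12.5, where the reporter changes from *Sry-EGFP* to *Sox9-ECFP*. From E11.5 to E12.5, 15 genes rose and 4 fell, against 12.6% and 9.22%, and from E12.5 to E13.5 none was called, against 0.749% and 0.88%, with 1 gene at an unadjusted limma p under 0.05. Reporter and stage cannot be told apart in the first of these steps. Without the first E11.5 XY supporting array, 8 genes were called between E11.5 and E13.5 in place of 18, and 11 without the second E13.5 array.

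In the other somatic cells, stage moved few chain genes. No gene was called in XX interstitial cells (2.91% and 3.54% of all clusters higher and lower, 9 genes at an unadjusted limma p under 0.05), in XY interstitial cells (4.05% and 3.34%, 1 gene) or in XX endothelial cells (1.79% and 1.9%, 9 genes). In XX endothelial cells the step from E11.5 to E12.5 had 6 genes that fell and none that rose, against 2.88% and 1.36%, led by *Ndufa9* (-1.10). XY endothelial cells had 6 genes that rose from E11.5 to E13.5 and none that fell, against 8.41% and 4.93%. These were *Cox7a1* (1.58), *Cox6b2* (1.07, adjusted p = 0.119 without the second E11.5 array), *Ndufs3* (0.54, but 0.16 with an adjusted p of 0.548 without the third E11.5 array), *Ndufb9* (0.51), *Sdha* (0.49) and *Ndufv1* (0.47). In the same cells the Leydig list mean went from 5.66 to 10.71, that of interstitial markers from 7.59 to 8.56 and that of germ markers from 6.26 to 7.16. The part of these lists was not tested. Without the first E11.5 array, 11 genes rose and 2 fell, and 3, 2 and 3 genes were called without the third E11.5, the first E13.5 and the second E13.5 array. In *αSma-EYFP* cells no gene was called in XX (3.33% and 2.97%, 2 genes at an unadjusted limma p under 0.05) or XY cells (4.55% and 5.38%, 5 genes).

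Likeness was read as a correlation over the 24 group means, a description of groups that share arrays. The genes most like the median of the chain were *Ndufs5* (r = 0.92), *Cox7a2* (0.91) and *Uqcr11* (0.90). This median was taken over all genes of the chain, so each gene is part of its own reference. The genes most like *Cox7a1* were *Ndufa13* (0.93), *Ndufa6* (0.88) and *Ndufs6* (0.86), all of complex I.

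Neighbouring mitochondrial genes were read beside the shares of all clusters in the same 6 comparisons. These shares were 25.3% to 27% higher and 25.2% to 26.6% lower in germ cells. The neighbouring lists, with the assembly factors and regulators below, were read on the deposited values alone. Quantile normalization, leaving out single arrays and the other alternatives were not applied to them. Of 77 mitochondrial ribosomal protein genes that passed the filter, 48, 50 and 44 were higher in XX germ cells in stage order and 56, 51 and 35 in XY germ cells, with 2 to 5 lower. *Mrps18b* (1.53) and *Mrpl23* (1.39) were higher and *Mrpl27* (-0.74) and *Mrps11* (-0.41) lower at XY E13.5. Of 15 citric acid cycle genes, 9, 11 and 9 were higher in XX and 9, 8 and 5 in XY germ cells, with at most 1 lower. *Pdha1*, the E1 alpha subunit of pyruvate dehydrogenase that feeds the cycle, was higher by 1.10 at XX and 1.19 at XY E13.5. Of 18 genes of glycolysis and its transporters, 6, 4 and 2 were higher and 7, 5 and 9 lower in XX germ cells, and 5, 4 and 6 higher and 7, 9 and 9 lower in XY germ cells. *Ldha*, which makes lactate, was lower by -1.55 and -2.27 and *Tpi1* by -1.66 and -1.45 at E13.5 in XX and XY cells, while the glucose transporter *Slc2a3* was higher by 1.34 and 1.66. From E11.5 to E13.5, 12 of the 18 fell in XX and 7 in XY germ cells, against 12.6% and 7.72% of all clusters, and none rose, against 12.8% and 8.9%.

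Genes that build or maintain the chain were counted in the same 6 comparisons. Of 31 assembly factors, 15, 14 and 12 were higher and 3, 6 and 5 lower in XX germ cells, and 15, 13 and 11 higher and 3, 6 and 7 lower in XY germ cells in stage order, beside 25.3% to 27% and 25.2% to 26.6% of all clusters. *Lrpprc*, which stabilizes mitochondrial mRNAs, was higher by 1.34 and 1.48 and *Ndufaf1* by 1.13 and 1.04 at E13.5 in XX and XY cells, and *Sdhaf1* was lower by -0.93 and -0.85 and *Cox20* by -0.65 and -0.76. Of 10 genes for mitochondrial DNA upkeep, 6 to 8 were higher and at most 1 lower, with *Tfb1m* higher by 1.95 and 1.00. Of 24 import and dynamics genes, 9 to 14 were higher and 2 to 5 lower, with *Vdac1*, the outer membrane channel, lower by -2.21 and -1.09. Of 8 antioxidant genes, 3 to 5 were higher and 1 lower, with *Prdx3* lower by -2.34 and -1.35. Of 10 chain genes outside the symbol rule, 3 to 5 were higher and 2 lower. *Cyct*, the testis form of cytochrome c, was among the higher ones at E13.5. The check for genes that passed the filter on low values in germ groups only covered the genes chosen by symbol and not these lists. No difference or fold is therefore given for *Cyct*, and its calls support nothing.

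Of 9 regulators of these genes, 2 to 5 were higher and 2 or 3 lower in germ cells, beside 25.3% to 27% of all clusters higher and 25.2% to 26.6% lower. *Pprc1*, a coactivator of NRF1, was higher in germ cells in all 6 comparisons, by 1.80, 1.67 and 1.30 in XX and 1.70, 1.66 and 1.60 in XY cells. *Tfam*, the mitochondrial DNA packaging factor, was higher in 5 of 6 by 0.56 to 1.01, *Gabpa* in 4 of 6 by 0.28 to 0.48 and *Nrf1* in 2 of 6, and *Esrra* was called in none. *Yy1* was lower at E13.5 by -0.96 in XX and -0.37 in XY cells. *Ppargc1a*, a coactivator known for mitochondrial biogenesis, was lower in germ cells in 5 of 6, by -0.71 at XX and -1.66 at XY E13.5, and was higher in XY than XX supporting cells by 3.90, 3.08 and 2.12 in stage order.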

How the data were processed

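RNA of sorted cells was amplified with a NuGEN Ovation Pico kit, labelled with biotin and hybridized to Affymetrix Mouse Gene 1.0 ST arrays. The deposited values are log2 RMA intensities per transcript cluster, made by the authors with GCOS and Partek, and RMA had already corrected background and equalized the intensity distributions, which removes any shift shared by all genes. Which arrays were normalized together and the genome build of the cluster annotation are not given in the sources used here. Of 35557 clusters, 21789 name 1 gene and were used, 1621 name several and 12147 none.

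Clusters that exceeded 6 on the log2 scale on 2 or more of the 3 arrays of any group were fitted with limma 3.58.1 (R 4.3.3) as group means over 72 arrays (24 groups, 48 residual degrees of freedom), and over 90 arrays for *αSma-EYFP*. Adjusted p-values are Benjamini-Hochberg values over all 16820 (16859) tested clusters, called under 0.05. The fit was tested on simulated data. Each array is a pool of embryos, so p-values measure the spread between pools, and 3 arrays per group limit the precision. The highest correlation between arrays was 0.99676, so none was counted as a duplicate. Same-numbered XX and XY germ samples deviated together to some degree at each stage. Over clusters, r was 0.20, 0.23 and 0.08 at E11.5, 0.13, 0.14 and 0.21 at E12.5, and 0.17, 0.01 and 0.14 at E13.5. The main fit had no term for the replicate number.

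Named genes were the 5 largest calls in each direction of each germ comparison, the 3 largest of each sex, stage and interaction comparison, X-linked genes, isoform families, regulators, and 2 genes per direction of each neighbouring list at E13.5. Genes beside these were named after their values were seen. Members and lists were chosen with earlier results of these data known. Alternatives were quantile normalization, all 90 arrays, no filter, mean over clusters, single somatic subsets, a replicate block, the limits of the study's methods (unadjusted p under 0.05 and fold over 1.5) and leaving out each array. Motifs were searched in RefSeq promoter windows (GRCm38.p6). The whole newborn mouse array was left out, and the reporter of the interstitial cells is not reported here.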

Additional observations from a re-analysis of the deposited data

Results flagged for a closer look

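The sex difference of germ cells differed from that of the somatic lineages at E13.5, by a limma interaction test, for 4 named genes. For *Cox7a1* the germ value was lower by -2.29 (adjusted p = 1.42e-06), for *Ndufa1* by -1.42 (adjusted p = 1.92e-10), for *Ndufb11* by -0.52 (adjusted p = 0.00539) and for *Ndufs5* by -0.99 (adjusted p = 0.0267). The germ cell sex difference at E13.5 also differed from that at E11.5, by -1.52 for *Cox7a1* (adjusted p = 0.0182), by -1.06 for *Cox7b2* (adjusted p = 0.00211) and by -0.92 for *Ndufa1* (adjusted p = 0.000494). The call of *Ndufs5* was lost in 4 of 24 fits that left out a single array and that of the stage difference of *Cox7a1* in 4 of 12.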

How the results depend on the processing

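No called value turned its sign, while with quantile normalization the median over the 78 genes in XY E13.5 germ against somatic cells went from 0.04 to -0.03. Without the filter on low values and against supporting cells alone or without *Flk1-mCherry* cells, all counts of called genes that could be computed stayed within 1.5 times the reported ones. Under the limits of the study's methods (unadjusted p under 0.05 and fold over 1.5), germ against somatic calls numbered 12, 14 and 23 in XX and 14, 15 and 7 in XY cells in stage order. Under the same limits the sex comparisons gave 0 at E12.5 and 3 at E13.5 in germ cells, 2, 5 and 4 in supporting cells, 1 at E11.5 and 3 at E12.5 in endothelial cells and 1 at E13.5 in *αSma-EYFP* cells, and the E13.5 germ against somatic sex difference gave 8. Stage gave 3 in XX germ, 2 in XY germ, 1 in XX endothelial, 1 in XX supporting, 2 in XY endothelial, 1 in XY interstitial and 4 in XY supporting cells. These limits change the p-value and the fold together. The counts join both directions. The share of all clusters under the same limits was not computed, so these counts cannot be read against a background. With quantile normalization, stage gave 2 genes in XX *αSma-EYFP*, 2 in XX supporting and 2 in XY *αSma-EYFP* cells and the E12.5 germ sex comparison 2. With all 90 arrays, stage gave 1 gene in XX interstitial and 1 in XX supporting cells and the E12.5 germ sex comparison 2. With the replicate number as a block, stage gave 1 gene in XX interstitial and 1 in XX supporting cells and the E12.5 germ sex comparison 2, and no other count of calls moved by over 1.5 times. With the mean over a gene's clusters, stage gave 1 gene in XX supporting cells and the E12.5 germ sex comparison 2.

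Leaving out each array in turn, germ against somatic calls in both directions ran from 26 to 34, 29 to 43 and 39 to 45 in XX and from 28 to 38, 26 to 35 and 25 to 32 in XY cells. Stage calls ran from 4 to 12 in XX germ (4 without the third E13.5 array), 2 to 7 in XY germ, 8 to 17 in XY supporting, 2 to 13 in XY endothelial, 0 to 2 in XX supporting, 0 to 1 in XX endothelial and 0 to 1 in XX interstitial cells. Sex calls ran from 1 to 1, 0 to 2 and 7 to 12 in germ cells, 2 to 7, 10 to 20 and 7 to 17 in supporting cells, 0 to 10 (10 without the first E11.5 XY array), 1 to 9 and 2 to 4 in endothelial cells, and 0 to 1 in E13.5 interstitial cells. The interaction calls ran from 9 to 25 at E13.5 and from 3 to 8 between stages. The causes were not tested. Of 94 differences given for single named genes, 43 lost their call under at least 1 alternative, 29 of them on leaving out a single array, and none turned its sign. Signals near the low end of the scale, such as those of *Cox7b2* and *Cox8b*, limit what can be read as a difference.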
